A study of Caenorhabditis elegans with 12 samples.

Results

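The srw genes of Caenorhabditis elegans encode a family of chemoreceptors, and 129 of them are described here by the H3K9me3 counts over their exons. They were chosen by identifier, as the genes from WBGene00005760 to WBGene00005890, out of 46760 genes in the count tables. The pair WBGene00005829 (srw-82) and WBGene00005830 (srw-83) was left out of that range. It borders or lies in a stretch of chromosome V that has almost no counts in the hrde-1 libraries. That part of the choice rests on counts that are compared here. The study profiled germline nuclei of 1-day-old adults grown at 20 °C for about 68 h after the L1 stage. In CUT&Tag a transposase is brought to a chromatin mark by an antibody, and the fragments it cuts out there are sequenced. Each reaction held 50000 nuclei. The groups were the hrde-1(tm1200) mutant on chromosome III (strain USC661), the hrde-2(qe20) mutant on chromosome V (strain FD53, hrde-2 also being called enri-3), and the wild-type strain N2, with 3 H3K9me3 libraries and 1 IgG library each. According to the methods, the primary antibody was omitted from the libraries labelled IgG. Each mutant is 1 allele in 1 strain, so the allele and the rest of its strain background cannot be told apart. The H3K9me3 antibody was reported by the study to bind H3K27me3 and H4K20me3 as well, and the part of those marks in these counts was not tested.

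H3K9me3 is a histone mark of silenced chromatin, and in C. elegans it is dense on the arms of the autosomes, where repeats and recently expanded gene families lie. HRDE-1 is a nuclear Argonaute protein of the germline that uses small RNAs to direct H3K9me3 to matching genes, and HRDE-2 acts with it. The srw receptors are G-protein-coupled proteins that cross the membrane several times, are thought to be related to peptide receptors, and belong to the large set of nematode chemoreceptors used in sensory neurons rather than in germ cells. Many of them arose as tandem duplicates on chromosome V. The comparisons ask whether the mark over these genes depends on HRDE-1 or HRDE-2.

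Among the 129 genes, 114 lie on chromosome V, 6 on II, 5 on IV and 4 on I. By annotation 94 are protein-coding and 35 are pseudogenes, and their exons cover 528 to 1622 bases with a median of 1104. Identifiers do not follow the symbols completely, since 145 genes of the tables carry an srw symbol and 14 of those lie outside the identifier range. All 129 genes passed the filter on low counts that 28691 genes passed in all.

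The gene on which the genotype results turn is srw-85 (WBGene00005832), annotated on the minus strand of chrV:19429440-19431687 in WS258 with 5 exon blocks. Among the 129 genes, without the pair left out, srw-85 alone had an adjusted p under 0.05 between genotypes. For that reason its first coding exon in the Ensembl annotation, chrV:19430858-19431039, is shown, and the capitals mark the start codon annotated there. The WS258 model has a further exon block upstream.
srw-85: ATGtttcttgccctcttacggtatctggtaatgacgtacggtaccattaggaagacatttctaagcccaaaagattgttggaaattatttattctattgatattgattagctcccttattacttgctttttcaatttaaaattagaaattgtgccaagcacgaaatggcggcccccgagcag
Counts of near-identical copies are uncertain one by one, because a fragment that fits both copies may have been placed at either. The exon segments of srw-141 (chrV:2937580-2937803) and srw-142 (chrV:2957284-2957507), both on the minus strand and 224 bases long, show how close such tandem copies are. They are 95.5% identical, and the capitals mark the 10 bases that differ.
srw-141: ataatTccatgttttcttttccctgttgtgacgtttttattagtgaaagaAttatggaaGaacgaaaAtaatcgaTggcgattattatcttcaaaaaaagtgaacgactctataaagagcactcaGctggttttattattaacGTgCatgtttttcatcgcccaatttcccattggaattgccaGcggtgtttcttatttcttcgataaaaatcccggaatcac
srw-142: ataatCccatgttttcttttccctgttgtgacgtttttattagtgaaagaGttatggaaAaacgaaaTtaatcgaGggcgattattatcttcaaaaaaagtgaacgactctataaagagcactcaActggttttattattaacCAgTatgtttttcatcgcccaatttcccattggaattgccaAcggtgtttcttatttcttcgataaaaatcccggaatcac
A 50-base word that occurs elsewhere in the genome was found in the exons of 32 srw genes. By the count made, such words were over 10% of the exon words in 15 genes and over 30% in 10. That count runs low in srw-38, with 35 of 908 words, although 196 of its words are shared with srw-39. With the shared words counted, srw-38 too would pass 10%. The exons of srw-85 hold no repeated word, and 97 of the 129 genes hold none. The exons of 3 genes (srw-19, srw-63 and srw-94, named after the values were seen) overlap an exon of another gene, and the counting made no use of strand.

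The H3K9me3 libraries held 6254908 to 8719542 counts over all genes, except wild-type replicate 2 with 1470699. The IgG totals were lower, at 37617 counts in hrde-1, 13950 in hrde-2 and 233980 in wild-type. Every srw gene had counts in every H3K9me3 library, with a median of 30 counts per gene in wild-type replicate 2 and of 99 to 148 in the others. At the hrde-1 gene itself the H3K9me3 level, as counts per 1000000 counts of the library and per kb of exon (CPM per kb), was 24.5 to 26.8 in hrde-1, 33.3 to 34.8 in hrde-2 and 23.5 to 24.8 in wild-type. The hrde-2 gene had 15.1 to 20.9 CPM per kb in hrde-1, 20.0 to 22.2 in hrde-2 and 16.5 to 21.4 in wild-type, so neither gene's exon counts check the mutant labels. Defining markers of germ cells had a summed level of 20.8 to 24.5 CPM per kb in hrde-1, 26.3 to 27.5 in hrde-2 and 20.5 to 21.9 in wild-type. For neuronal markers the ranges were 16.98 to 18.8, 17.8 to 20.1 and 14.8 to 20.3 in the same order, and no marker was at 0 over the H3K9me3 libraries of any genotype. Intestinal markers had 64.6 to 72.1 CPM per kb in hrde-1, 53.3 to 62.4 in hrde-2 and 53.01 to 54.6 in wild-type, hypodermal markers 45.3 to 53.2, 46.4 to 47.7 and 38.2 to 44.6, and muscle markers 50.7 to 55.6, 46.2 to 55.2 and 46.8 to 52.7. The hrde-1 libraries thus lay above wild-type for intestine and hypodermis, and the hrde-2 libraries for germline and hypodermis. The part of these shifts in the srw results was not tested. In the IgG libraries germline markers had 18.3 CPM per kb in hrde-1, 35.3 in hrde-2 and 22.3 in wild-type. In the same order intestinal markers had 35.9, 69.8 and 46.4 there, hypodermal markers 7.31, 39.4 and 14.1, and muscle markers 17.7, 75.6 and 25.6. Neuronal markers had 14.5, 9.79 and 17.2. Germline markers in hrde-2 and wild-type, and intestinal and muscle markers in hrde-2, thus did not lie above IgG. A mark over DNA does not count cells, so these levels show no purity, and fewer marked nuclei cannot be told apart from less mark per nucleus.

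H3K9me3 counts over the srw genes were moderate and uneven. The level, averaged over the 9 H3K9me3 libraries, had a median of 15.1 CPM per kb over the 129 genes, with a middle range (25th to 75th percentile) of 12.1 to 20.7 and extremes of 5.57 and 71.5. The 17293 other protein-coding genes with at least 500 exon bases had a median of 19.2 CPM per kb, and 89 of the 129 srw genes lay below it. Pseudogenes of the family had a median level of 16.3 CPM per kb (n = 35) and protein-coding members 14.3 (n = 94). By chromosome, the median level was 26.3 CPM per kb for the 4 genes on I, 18.9 for the 6 on II, 17.9 for the 5 on IV and 14.3 for the 114 on V. The family is thus low on its home chromosome, where 4259 other protein-coding genes of at least 500 exon bases had a median of 19.2 CPM per kb.

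Only 3 of the 129 srw genes exceeded the 90th percentile of other protein-coding genes, which was 40.9 CPM per kb. They were srw-85 with a mean of 71.5 CPM per kb, srw-108 with 58.3 ± 10.3 and srw-87 with 51.4 ± 6.85 (SD, n = 9 libraries of the 3 genotypes). The srw-108 gene, at the last place of the leftmost cluster of chromosome V, had 56.8, 54.5 and 42.1 CPM per kb in hrde-1, 56.3, 61.8 and 66.1 in hrde-2, and 56.5, 79.4 and 51.4 in wild-type. The 3 genotypes overlap there. In srw-87, which lies outside the clusters, the levels were 44.0, 55.9 and 54.8 CPM per kb in hrde-1, 57.7, 51.8 and 53.6 in hrde-2, and 48.8, 58.2 and 37.6 in wild-type, again with overlap. The next 2 genes were srw-49, a pseudogene with 38.6 ± 4.50 CPM per kb, and srw-107 with 37.4 ± 3.94. In srw-49, 80.0% of the exon words occur elsewhere in the genome, so its level is uncertain.

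The 5 lowest levels belonged to srw-40 on chromosome II (5.57 CPM per kb), srw-84 (5.70), srw-142 (6.21), srw-141 (6.51) and srw-66 on chromosome II (6.92). In srw-84 the libraries gave 3.24, 7.04 and 3.94 CPM per kb in hrde-1, 5.04, 8.13 and 5.80 in hrde-2, and 6.15, 5.51 and 6.41 in wild-type. This gene is a neighbour of srw-85, so the highest and the second lowest levels of the family stand in the same cluster. The pair srw-141 and srw-142, whose segments are printed above, had neighbouring ranks. Across the 129 genes the level went with the GC content of the exons (Pearson's r = 0.57, Spearman's rho = 0.57, n = 129 genes that share the same 9 libraries). Over the 97 genes without repeated words both coefficients were 0.61. The 10 genes with the highest level had a median GC content of 39.5%, and the 10 with the lowest 33.9%, against 35.8% over all 129. Genes are not independent replicates, and the part of base composition in these levels was not tested.

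**Figure D1:**
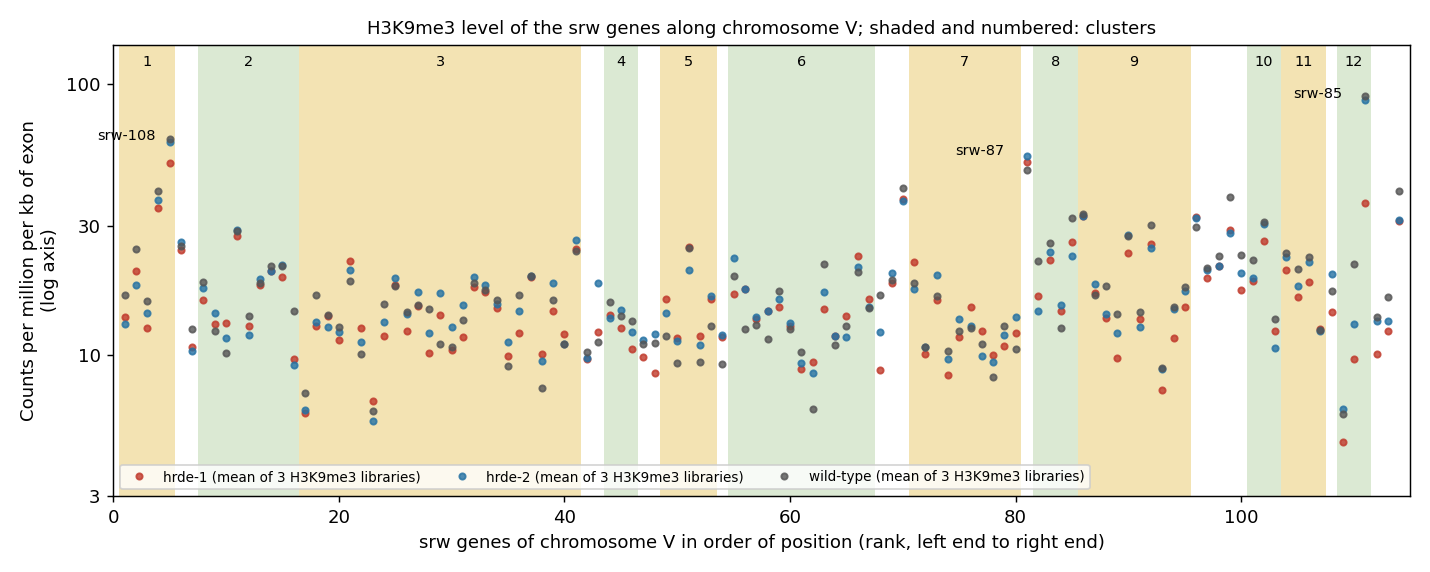
H3K9me3 level (CPM per kb of exon, log axis) of the 114 srw genes of chromosome V in their order from the left to the right end, with 1 point per genotype for the mean of its 3 H3K9me3 libraries (hrde-1, hrde-2 and wild-type) and shading for the 12 clusters. In srw-85, near the right end, the means are 36.5 in hrde-1, 87.7 in hrde-2 and 90.4 in wild-type.

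The srw genes of chromosome V are gathered in clusters, most of them on the arms. With a new cluster begun wherever neighbouring genes start more than 50 kb apart, 94 genes formed 12 clusters of 3 or more, and 20 genes of chromosome V stood outside. The largest cluster held 25 genes from srw-141 to srw-135 (chrV:2937311-3011671) in 74.4 kb. The level in clusters had a median of 14.2 CPM per kb (n = 94), against 18.1 for the srw genes of V outside them (n = 20) and 21.5 for the 150 other protein-coding genes lying within the clusters. In 10 bins of 1 Mb that held 3 or more srw genes, the srw median was below that of the other protein-coding genes in 10 of 10. Within the clusters the srw median was below that of the other protein-coding genes lying there in 8 of 11 clusters. It was above it in the largest, from srw-141 to srw-135 (13.6 against 13.04 CPM per kb for 5 other genes), in that from srw-132 to srw-133 (13.7 against 13.03 for 1 gene) and in that from srw-47 to srw-46 (20.1 against 11.7 for 4 genes).

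Summed over its genes, the level of a cluster varied along the chromosome. The lowest was 12.7 CPM per kb in the 10 genes from srw-26 to srw-57, with 10.3 to 15.2 over the 9 libraries. The cluster of 25 genes from srw-141 to srw-135 had 14.1 CPM per kb, with 11.8 to 15.8. On the left arm the 5 genes from srw-104 to srw-108 (chrV:508112-528869) had 24.0 ± 3.05 CPM per kb in hrde-1, 25.5 ± 1.42 in hrde-2 and 28.8 ± 4.67 in wild-type (SD, n = 3 each). The cluster from srw-48 to srw-34 had 19.9 ± 4.46, 19.2 ± 2.11 and 23.2 ± 2.57 CPM per kb in the same order. In these clusters the spread between libraries covers the differences between genotypes. The rightmost cluster, with srw-84, srw-86 and srw-85 (chrV:19381268-19431687), differed by more than that spread, with 21.4 ± 4.98 CPM per kb in hrde-1, 47.9 ± 5.43 in hrde-2 and 50.5 ± 4.52 in wild-type. Most of its counts are those of srw-85, which had 36.5 ± 8.33, 87.7 ± 10.1 and 90.4 ± 6.32 CPM per kb in the same order, and the other genes of the cluster did not pass the test.

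To ask whether loss of HRDE-1 changed the mark over the family, each gene was tested across the 9 libraries with edgeR's quasi-likelihood test and Benjamini-Hochberg adjustment over all 28691 genes. In hrde-1 against wild-type 1 of 129 srw genes was lower at an adjusted p under 0.05, where 0.572% of all genes were, and 0 were higher, where 0.188% were. At an unadjusted p under 0.05, 12 srw genes were lower (6.36% of all genes) and 3 were higher (4.65% of all genes). DESeq2 also called 1 srw gene. Among these 129 genes the 1 call is a share near the background, so it describes srw-85 alone. It cannot speak for the family, because the pair left out for its counts in hrde-1 is not in this share. In both genes of that pair all hrde-1 H3K9me3 libraries lay below all others.

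In srw-85 the H3K9me3 level was 31.0, 46.1 and 32.4 CPM per kb in the hrde-1 libraries, 76.6, 96.2 and 90.3 in hrde-2, and 90.0, 96.8 and 84.2 in wild-type. All 3 hrde-1 libraries lay below all 6 others, and the hrde-2 and wild-type libraries overlapped. These levels rest on 336, 622 and 457 counts in hrde-1, on 777, 1090 and 933 in hrde-2, and on 1005, 231 and 1191 in wild-type. The level in hrde-1 was 40.2% of that in wild-type, a log2 difference of −1.31 ± 0.13 (SE, adjusted p = 4.36e-09). The hrde-2 libraries differed from wild-type by −0.13 ± 0.12 on the log2 scale (adjusted p = 0.81). Tested directly, srw-85 was 2.27-fold higher in hrde-2 than in hrde-1 (log2 difference 1.18 ± 0.12, adjusted p = 3.27e-08). By adjusted p it was number 10 of the 164 genes that fell in hrde-1.

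**Figure D2:**
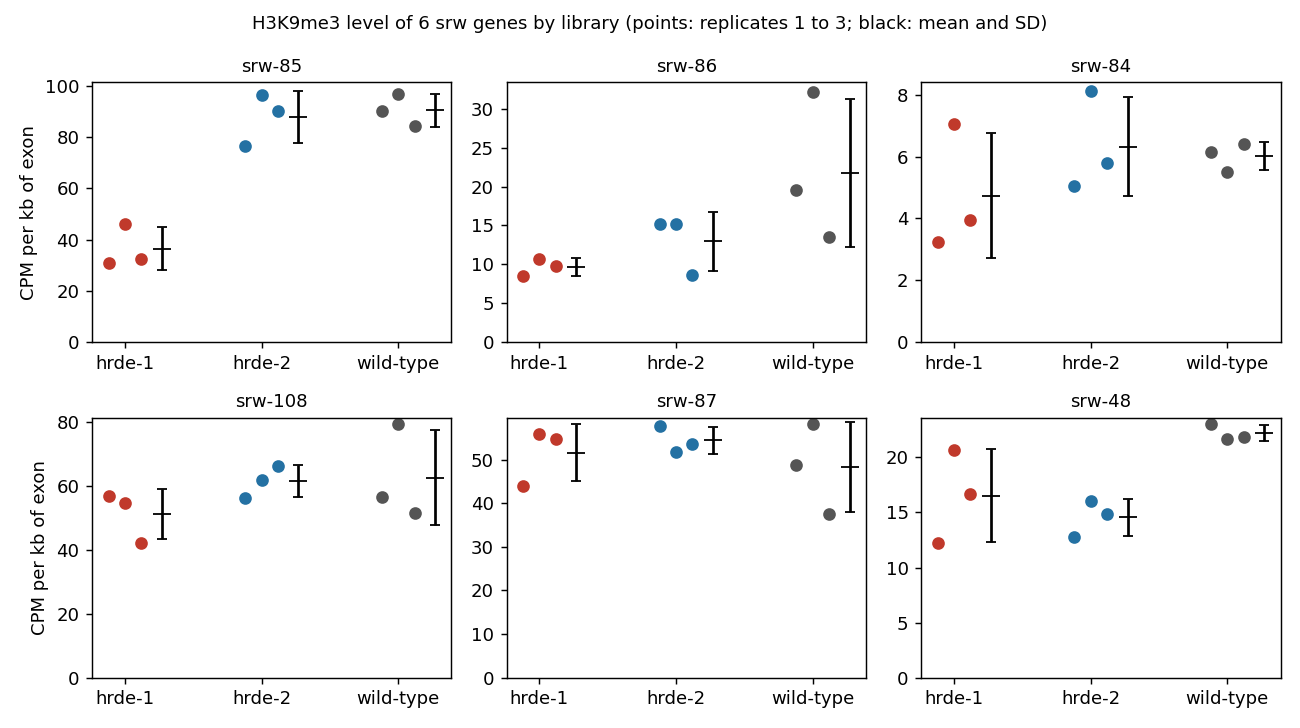
H3K9me3 level (CPM per kb of exon) in each library for 6 srw genes, with hrde-1, hrde-2 and wild-type from left to right, points for replicates and black bars for the mean and SD. In srw-85 the hrde-1 libraries sit at 31.0 to 46.1 and the other 6 at 76.6 to 96.8.

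The other srw genes with the lowest differences in hrde-1 did not pass the test. In srw-86 (chrV:19400142-19400715), of the same cluster, the level was 8.51, 10.7 and 9.81 CPM per kb in hrde-1, 15.1, 15.2 and 8.62 in hrde-2, and 19.5, 32.2 and 13.5 in wild-type. The hrde-1 libraries lay below all wild-type libraries, but the log2 difference of −1.02 ± 0.31 had an adjusted p of 0.136, and the wild-type values spread widely, with the highest in the shallow replicate 2. In srw-33 (chrV:15449631-15451521) the level was 7.38, 9.09 and 9.82 CPM per kb in hrde-1, 14.2, 12.2 and 9.94 in hrde-2, and 13.3, 24.5 and 12.1 in wild-type, a log2 difference of −0.79 ± 0.24 in hrde-1 (adjusted p = 0.12). This gene, too, read highest in wild-type replicate 2. The 3 largest positive differences were 0.54 in srw-16 (adjusted p = 0.421), 0.54 in srw-67 (adjusted p = 0.278) and 0.53 in srw-24 (adjusted p = 0.233). Their levels stayed low, as in srw-24 with 18.5, 17.3 and 16.9 CPM per kb in hrde-1 and 12.3, 13.9 and 11.1 in wild-type, where the groups did not overlap.

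Around srw-85 no other gene was called. Within 50 kb lie 40 other genes, of which 39 were tested and 0 passed an adjusted p of 0.05 in hrde-1 against wild-type, in hrde-2 against wild-type or in hrde-2 against hrde-1. Their log2 differences in hrde-1 ran from −1.20 to 0.93 with a median of −0.35, and 33 of 39 were negative. In hrde-2 the median was −0.25 and 34 of 39 were negative. Both comparisons use the same wild-type libraries. The difference of srw-85 in hrde-1 lies outside the range of its neighbours, whose lowest value was −1.20 ± 0.47 (SE) in linc-28. The neighbours' medians against wild-type are negative in both mutants. In hrde-2 against hrde-1 their median was 0.11, and 11 of 39 were negative.

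**Figure D3:**
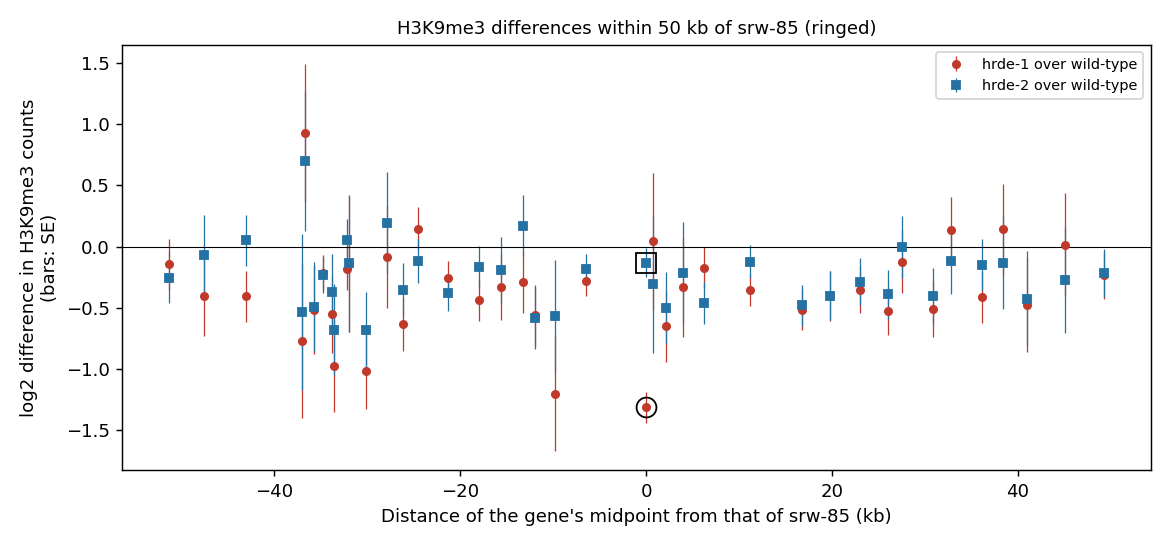
log2 difference in H3K9me3 counts (bars, SE) of the genes within 50 kb of srw-85, against the distance of their midpoints from its own in kb, with circles for hrde-1 over wild-type and squares for hrde-2 over wild-type. In hrde-1 srw-85, which is ringed, is at −1.31 and the other genes lie between −1.20 and 0.93.

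In hrde-2 against wild-type 0 srw genes were lower or higher at an adjusted p under 0.05, where 0.31% of all genes were lower and 0.185% were higher, and DESeq2 called 0 as well. At an unadjusted p under 0.05, 8 srw genes were lower (5.14% of all genes) and 3 were higher (4.16% of all genes). The lowest difference belonged to srw-48 (chrV:16420996-16422774), the first gene of its cluster, with 12.8, 15.9965 and 14.9 CPM per kb in hrde-2, 12.2, 20.7 and 16.6 in hrde-1, and 23.1, 21.7 and 21.9 in wild-type. All 3 hrde-2 libraries lay below all wild-type libraries, with a log2 difference of −0.72 and an adjusted p of 0.068, which fell under 0.05 with no filter on low counts and with a replicate block. In hrde-1 the same gene differed by −0.45 (adjusted p = 0.311). The srw-89 gene had 19.7, 18.2 and 17.2 CPM per kb in hrde-2 and 12.4, 11.9 and 9.08 in wild-type, a log2 difference of 0.65 ± 0.20 with no overlap and an adjusted p of 0.186. Further differences were −0.68 in srw-86 (adjusted p = 0.49), −0.55 in srw-101 (adjusted p = 0.572), 0.44 in srw-118 (adjusted p = 0.515) and 0.44 in srw-24 (adjusted p = 0.46). In srw-101 the wild-type libraries read 9.33, 24.7 and 9.59 CPM per kb, and without wild-type replicate 2 its difference was −0.19. Without the same library that of srw-86 was −0.45, and with all libraries thinned to the depth of that library the difference of srw-118 was 1.04 (adjusted p = 0.148). In hrde-2 against hrde-1 the call was srw-85 alone, higher in hrde-2 (0.209% of all genes were higher, 0.234% lower). At an unadjusted p under 0.05, 3 srw genes were higher (3.25% of all genes) and 2 were lower, srw-69 and srw-26 (3.2% of all genes).

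A larger share of the differences from wild-type was negative over the family than over all genes, in both mutants. In hrde-1 the median log2 difference was −0.11 (25th to 75th percentile −0.24 to 0.03), beside 0.01 over all genes tested, and 88 of 129 differences were negative (68.2%, against 49.2% of all genes). In hrde-2 it was −0.08 (−0.21 to 0.07), beside 0.00 over all genes, with 86 of 129 negative (66.7%, against 49.4%). The 212 other genes tested inside the srw clusters of chromosome V also had negative medians, −0.08 in hrde-1 and −0.09 in hrde-2. Both comparisons use the same wild-type libraries, and no test over the family was made. Between the mutants the median was 0.01 and 63 of 129 differences were negative. With total counts in place of TMM scaling, the hrde-2 median was 0.01 and that of all genes 0.10.

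Along chromosome V, the medians of the srw genes and of the other protein-coding genes had the same sign in 6 of the 10 bins with 3 or more srw genes, in hrde-1 and in hrde-2. In the 1 Mb bin that starts at 7 Mb, near the middle, the median of 6 srw genes in hrde-1 was 0.29 and that of the other protein-coding genes 0.09. In the bin at 17 Mb, on the right arm, the medians were −0.24 for 11 srw genes and −0.18 for the others. In the bin at 0 Mb they were −0.22 for 7 srw genes and −0.08 for the others. In the 4 bins that start at 1, 2, 3 and 4 Mb, with 39 srw genes, the signs differed: the srw medians in hrde-1 were −0.05, −0.07, −0.03 and −0.08 and those of the others 0.01, 0.01, 0.01 and 0.08. Of the 10 bins with 3 or more srw genes, the srw median was below that of the others in 8 for hrde-1 and in 9 for hrde-2. By cluster, the 5 genes from srw-67 to srw-78 had a median difference of 0.30 in hrde-1 and 0.18 in hrde-2, and the rightmost cluster −1.02 in hrde-1 and −0.13 in hrde-2. The 212 other genes tested inside the clusters held 1 higher and 1 lower call in hrde-1 (0.188% and 0.572% of all genes) and 0 and 1 in hrde-2 (0.185% and 0.31% of all genes).

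**Figure D4:**
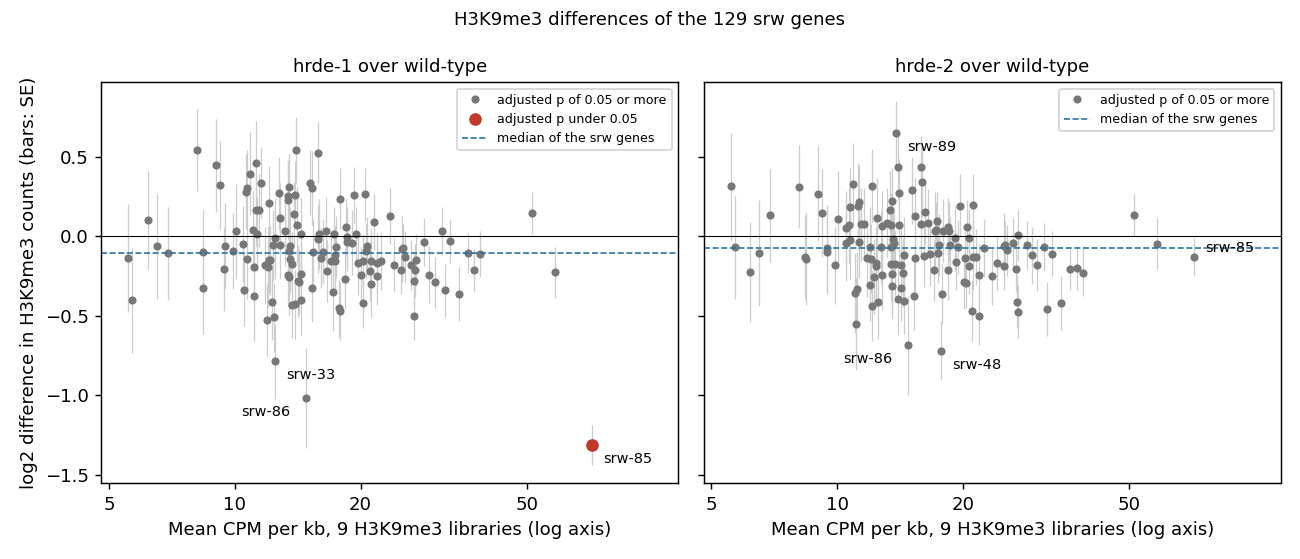
log2 difference in H3K9me3 counts of the 129 srw genes (bars, SE) against their mean level (CPM per kb, log axis), for hrde-1 over wild-type on the left and hrde-2 over wild-type on the right. Dashed lines mark the medians of −0.11 and −0.08, and srw-85 at −1.31 in hrde-1 is the only gene with an adjusted p under 0.05.

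Summed over all 129 genes, the H3K9me3 level was 15.2, 19.01 and 15.8 CPM per kb in hrde-1, 18.7, 18.8 and 17.2 in hrde-2, and 19.7, 20.4 and 15.8 in wild-type. The genotypes overlap, with means of 16.7 ± 2.04, 18.2 ± 0.87 and 18.7 ± 2.47 (SD, n = 3 each) in that order. With TMM scaling, as in the tests, the level was 16.3, 18.1 and 16.4 in hrde-1, 17.8, 17.6 and 17.1 in hrde-2, and 18.8, 20.0 and 18.1 in wild-type, so that hrde-2 lay below all wild-type libraries and hrde-1 overlapped them in 1 library. Nuclear rRNA genes took 13.2% to 24.6% of an H3K9me3 library, and wild-type replicate 3, with 24.6%, had the lowest summed srw level of its group. With rRNA and mitochondrial genes out of the totals it was still the lowest, at 21.5 CPM per kb beside 24.1 and 25.2.

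The IgG libraries set the background, with limited depth. The srw genes received 55 counts in hrde-1, 35 in hrde-2 and 381 in wild-type IgG, and 99, 105 and 37 of the 129 genes were at 0 there. A count of 0 still allows a gene up to 79.8 CPM in the hrde-1, 215 in the hrde-2 and 12.8 in the wild-type IgG library. Summed per kb, the IgG level was 10.4 CPM (95% Wilson interval 7.99 to 13.5) in hrde-1, 17.8 (12.8 to 24.8) in hrde-2 and 11.6 (10.5 to 12.8) in wild-type. H3K9me3 was therefore 1.60 times IgG in hrde-1, 1.02 times in hrde-2 and 1.61 times in wild-type, where all protein-coding genes gave 1.06, 1.15 and 1.24 times. The hrde-2 value lies within the counting interval of its own IgG library, so no excess over background was detectable for that genotype at this depth. With rRNA and mitochondrial genes out of the totals the ratios were 1.41, 0.903 and 1.19 in the same order.

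**Figure D5:**
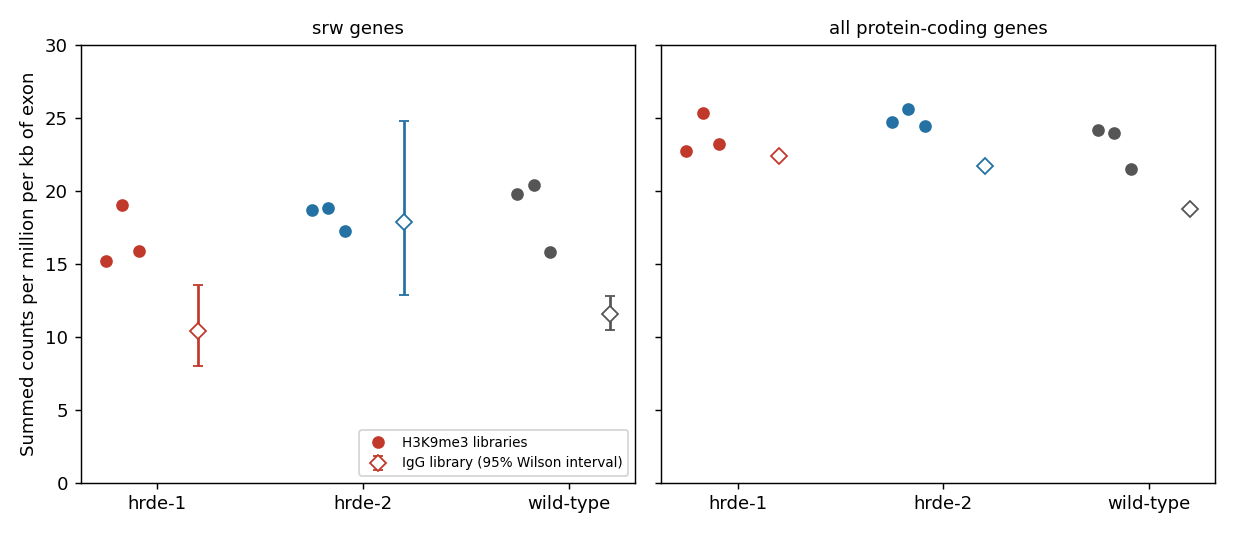
Summed level of the 129 srw genes (CPM per kb of exon) in each H3K9me3 library and in the IgG library of the same genotype (bars, 95% Wilson interval), from hrde-1 through hrde-2 to wild-type, with the same for all protein-coding genes on the right. For the srw genes the IgG values are 10.4, 17.8 and 11.6, and the widest interval is that of hrde-2, from 12.8 to 24.8.

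Gene by gene, H3K9me3 against IgG was fitted over all 12 libraries with genotype as a term. Of the 129 srw genes 2 were higher (5.33% of all 28657 genes tested) and 1 was lower (1.21%) at an adjusted p under 0.05, and 41 were higher (20.8% of all genes) and 4 lower (4.17%) at an unadjusted p under 0.05. The higher genes were srw-70 and srw-88. In srw-70 no IgG library had a count and the H3K9me3 libraries averaged 25.9 CPM, which against a floor of 3 counts over the 3 IgG libraries is at least 2.46-fold higher (adjusted p = 0.0195). In srw-88, on chromosome I, there was 1 IgG count and the log2 difference was 3.17 ± 1.07 (adjusted p = 0.0488). Of the 7 alternatives tried, the srw-88 call was kept only without the hrde-1 IgG library. The srw-70 call was lost with DESeq2, which called no srw gene higher, and without the wild-type IgG library. The lower gene was the pseudogene srw-18 (chrV:15277612-15278972), with 7 counts in hrde-1, 2 in hrde-2 and 8 in wild-type IgG and a log2 difference of −2.31 ± 0.50 (adjusted p = 0.00131). These genes were named as calls after their values were seen. Only 42 srw genes had 5 or more counts over the 3 IgG libraries, and with genes at 0 set to their bound the median log2 difference of the family was 0.54, beside 0.17 over all genes.

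For srw-85 the IgG counts were 1 in hrde-1, 0 in hrde-2 and 25 in wild-type. In wild-type this is 65.9 CPM per kb (95% Wilson interval 44.6 to 97.2), which reaches the H3K9me3 levels of 84.2 to 96.8. In hrde-1 it is 16.4 CPM per kb (2.89 to 92.8), and in hrde-2 it is 0 (0 to 170). H3K9me3 against IgG gave a log2 difference of 0.62 ± 0.37 for srw-85 (adjusted p = 0.28). The level of srw-85 was thus not separated from its background by this test, and the IgG counts in the mutants were too few to compare the genotypes without the antibody.

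Pooled, few genes of the other chemoreceptor families were called, too few to be read against the shares of all genes. Among 1484 genes of 21 other families, all tested, 7 were lower in hrde-1 (0.472%, beside 0.572% of all genes). The lower calls numbered 2 in hrde-2 (0.135%, beside 0.31%) and 1 in hrde-2 against hrde-1 (0.0674%, beside 0.234%). In each of these comparisons 0 were higher, beside 0.188%, 0.185% and 0.209% of all genes in the same order. The 7 were 4 of 105 srz genes (srz-56, srz-64, srz-71 and srz-105), a larger share than over all genes, srd-67 of 75 srd genes and 2 identifiers of srh-228, named after their values were seen. Family medians in hrde-1 ran from −0.25 in srz to 0.08 in srab, and the srw median of −0.11 was near the low end, with only srz and srn (1 gene, −0.16) below it. Close to it were srh at −0.10, srbc at −0.10 and sra at −0.09. In hrde-2 the family medians ran from −0.19 in srn to 0.06 in srb. There srz (−0.13), sra (−0.12), srbc (−0.12), srxa (−0.08) and srv (−0.08) also lay below the srw median of −0.08. By level, the srw median of 15.1 CPM per kb stood between 7.89 in srb and 23.8 in sri. It was below 17.9 in srh and 16.1 in str, and close to 15.3 in srz. Family medians below it included 14.9 in srx, 14.8 in srab, 14.4 in srbc and 13.9 in srsx. A level this low is thus not particular to srw. Of 20 genes that act around the receptors, among them G proteins, cyclases, channels and receptor transport factors, 0 passed the test in any of the 3 genotype comparisons, which at the shares of all genes says little for so short a list. Their median log2 difference was 0.03 in hrde-1 and 0.07 in hrde-2, and their median level was 17.2 CPM per kb.

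The pair left out of the family is given as values with no test. In srw-82 (chrV:18431750-18434172) the H3K9me3 level was 0, 0.11 and 0 CPM per kb in hrde-1, 42.0, 63.4 and 55.1 in hrde-2, and 54.9, 33.4 and 49.4 in wild-type. In srw-83 (chrV:18426580-18430537), beside it, the level was 16.7, 26.5 and 17.1 CPM per kb in hrde-1, 47.1, 60.9 and 47.97 in hrde-2, and 50.6, 47.8 and 56.5 in wild-type. In both genes all hrde-1 libraries lay below all others, and only srw-82 was near 0. The nearest member by position, srw-81 (chrV:18398450-18400374), had 9.07, 20.8 and 13.4 CPM per kb in hrde-1, 13.9, 20.7 and 25.2 in hrde-2, and 21.9, 12.1 and 17.4 in wild-type, with overlap. The gene srw-85 lies on the same arm. A difference in DNA between the strains at srw-85 cannot be told apart from a difference in the mark with these counts.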

How the data were processed

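H3K9me3 and IgG CUT&Tag libraries of hrde-1, hrde-2 and wild-type germline nuclei were used, 12 in all. The deposited files hold a count of fragments for each gene. Their headers name featureCounts 2.0.1, run by the authors on paired-end reads over exons of the WS258 canonical gene set, by gene and without strand, keeping the gene of largest overlap. All values were whole, so the fractional option had no effect. The submitters' processing notes name Bowtie2 2.5.0, Subread 2.0.1, bedtools 2.30.0, SEACR 1.3 and DiffBind 3.17. Removal of duplicates is not given in the sources used here.

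Level is counts per 1000000 counts of a library, per kb of exon. The test was that of edgeR 4.0.16 (R 4.3.3; quasi-likelihood, TMM scaling, filterByExpr with a minimum count of 10, Benjamini-Hochberg adjustment over all genes, threshold 0.05). One fit held the 9 H3K9me3 libraries, and a second held all 12 with genotype and antibody as terms. The code was tested on simulated data. Replicates were biological, and p-values measure the spread between them. Wilson 95% intervals and the floor of 3 counts (0.344 to 2.04 CPM for H3K9me3) cover counting error only. Gene symbols came from Ensembl 115 by identifier, with RefSeq for 35 pseudogenes. Sequences and repeated words came from RefSeq's WBcel235 genome, and 110 of the 129 genes have the same span in Ensembl 115 as in WS258.

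Named were srw genes called in a genotype comparison, the 3 largest differences in each direction per mutant against wild-type, the 5 highest and 5 lowest levels, cluster ends and the pair left out. The members and lists were chosen with earlier results of these data known. Alternatives were RLE scaling, total counts, no rRNA and mitochondrial genes, no filter, only the 2 genotypes compared, thinning to 1470699 counts, DESeq2 1.42.0, a replicate block, each library left out, and cluster gaps of 20 and 100 kb.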

Additional observations from a re-analysis of the deposited data

Results flagged for a closer look

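The H3K9me3 difference of srw-85 was not the same in the 2 mutants, by a test of that difference itself. In hrde-2 against hrde-1 the log2 difference was 1.18 ± 0.12 (SE, edgeR's quasi-likelihood test, adjusted p = 3.27e-08), with 3 of 3 hrde-2 libraries above 3 of 3 hrde-1 libraries.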

How the results depend on the processing

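Over 17 alternatives, srw-85 stayed the only one of the 129 srw genes called in hrde-1 against wild-type, with log2 differences from −1.46 to −1.24. The same held in hrde-2 against hrde-1, with differences from 1.11 to 1.33. Leaving out each library in turn gave the same ranges and 1 call each time. The median log2 difference ranged from −0.17 to −0.08 in hrde-1, and from −0.13 to 0.01 in hrde-2, where only total counts alone gave a positive value. In hrde-2 against wild-type 1 srw gene, srw-48, was called with no filter (adjusted p = 0.0392) and with a replicate block (adjusted p = 0.0405), against 0 otherwise. Under the replicate block srw-85 was at −1.34 and 1.19. Deviations of same-numbered libraries correlated between −0.05 and 0.12, and those of differently numbered ones between −0.13 and 0.06. The highest values, 0.10 and 0.12, belonged to same-numbered libraries of hrde-2 and wild-type. With deviations taken within 3 libraries per genotype, these values cannot decide whether the numbers pair the libraries. For H3K9me3 over IgG, the calls numbered 1 to 6 and the median log2 difference was 1.08 to 8.96 when each IgG library was left out. Without the wild-type IgG library, the deepest, only srw-18 was called. DESeq2 called 0 srw genes higher and 2 lower, srw-15 and srw-18, and gave a median of 0.73, beside −0.59 over all genes. With rRNA and mitochondrial genes out of the totals, the summed srw level was 21.1, 21.9 and 23.6 CPM per kb for H3K9me3 in hrde-1, hrde-2 and wild-type, and 14.9, 24.2 and 19.8 for IgG. Cluster gaps of 20 and 100 kb gave 12 and 11 clusters. The depth of the IgG libraries, with 471 counts over the srw genes, limits every statement on background.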

Other observations

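In srw-82, one of the pair left out of the family, the IgG libraries had 4 counts in hrde-1, 0 in hrde-2 and 0 in wild-type. The H3K9me3 libraries of hrde-1 had 0, 1 and 0 counts there.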
